A study of Mus musculus with 27 samples.

Results

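The Wnt genes described here are 58 of the 48795 genes listed for each library: 18 Wnt ligands, 14 receptors, 9 genes of the R-spondin, Lgr and ligase group, 10 secreted antagonists, and 7 Tcf/Lef factors and feedback targets. They were chosen as a gene family by symbol, and all 58 were found and passed the filter on low counts. They were followed by bulk RNA-seq through the stepwise differentiation of mouse embryonic stem cells toward the gonad, in 9 groups of 3 libraries. All groups came from 1 clone of XY cells with the TESCO-CFP reporter of Sertoli cells and the R26-rtTA allele, so the libraries do not sample genetic backgrounds. ESC are the undifferentiated cells, which were routinely kept in a medium that itself holds CHIR99021, a MEK inhibitor and LIF, and were passaged once in serum replacement with LIF before differentiation. From which of these media the sequenced ESC came is not given in the sources used here. EpiSC had spent 60 h with Activin A at 20 ng/ml, bFGF at 12 ng/ml and 1% knockout serum replacement. M, the mesoderm stage, followed after 36 h with bFGF at 20 ng/ml, BMP4 at 10 ng/ml and the phosphatidylinositol 3-kinase inhibitor LY294002 at 10 µM. IM1 to IM5 are parallel media for intermediate mesoderm, each used for 3.5 days with bFGF at 5 ng/ml and BMP4 at 20 ng/ml. IM1 had no further factor. The others all had 100 nM retinoic acid, to which IM2 added 10 ng/ml Activin A, IM4 added 0.3 µM CHIR99021 and IM5 added both, while IM3 had retinoic acid alone. iSLC are cells of the IM3 condition that were infected with doxycycline-inducible *Nr5a1* and *Dmrt1* lentiviruses, moved to a Sertoli medium and sorted for CFP. The factors listed for that medium are Activin A, EGF, FSH, FGF9, prostaglandin D2 and testosterone. Retinoic acid, BMP4 and bFGF are not among them.

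Wnt ligands are secreted, lipid-modified proteins that bind Frizzled receptors together with the co-receptors *Lrp5* and *Lrp6*. In the canonical branch this halts the destruction of beta-catenin, which then enters the nucleus and acts with Tcf and Lef factors on target genes. Among these targets are *Axin2*, *Nkd1*, *Notum*, *Znrf3* and *Rnf43*, which dampen the pathway again. R-spondins bind Lgr receptors and remove the ligases *Znrf3* and *Rnf43* from the membrane, which keeps more Frizzled at the cell surface. Sfrp proteins and *Frzb* bind ligands outside the cell, whereas *Dkk1* and *Dkk2* bind *Lrp5* and *Lrp6*. CHIR99021 inhibits the kinase GSK3, a part of the complex that marks beta-catenin for destruction, and so acts downstream of ligands and receptors. In the embryo, *Wnt3* and beta-catenin are needed for the primitive streak and mesoderm, and in the gonad *Rspo1* and *Wnt4* belong to the ovarian pathway.

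Totals of expected counts lay between 35923040 and 84876603 per library. Levels are given as deposited TPM, which are corrected for transcript length, and fold changes come from counts, which are not. DE genes had to reach an adjusted p of 0.01 or less, a 2-fold difference and 100 normalized reads, both as the mean of the 27 libraries and as the mean of 1 or both groups compared. Bulk RNA does not tell fewer cells of a type from less RNA per cell. The libraries fell on 2 sides by red blood cell genes and GC content. In ESC, M, IM3 and IM4 (12 libraries) the red blood cell genes summed to 3.89 to 27.1 CPM and the trend of counts with GC content was -0.53 to -0.0023, against 0.382 to 1.39 CPM and -0.0852 to 0.572 in the other 15. M and IM3, IM3 and IM4, and IM2 and IM5 were each compared within 1 side. The mean of the CHIR99021 effects without and with Activin A joins comparisons made within sides. In the interaction of CHIR99021 with Activin A, the side and Activin A cannot be told apart. In every other comparison the side and the condition cannot be told apart. Library 1 of IM5 stood apart from the other IM5 libraries and had the highest GC trend of all. Its chi-square per degree of freedom against them was 53.8 and 35.3, where they gave 14.1 between them. Other groups held such libraries too. Library 2 of M gave 29.8 and 38.5 against 7.07, and library 2 of ESC 19.4 and 25.2 against 9.64. The labels were checked against marker genes. *Esrrb* averaged 154 TPM in ESC, *Fgf5* 119 in EpiSC and *Mesp1* 86.6 in M, each the highest of the 9 groups. In the IM groups *Wt1* (6.39 to 149 TPM) and *Gata4* (75.8 to 339.7 TPM) were present, but *Pax2* averaged at most 0.22 TPM and *Lhx9* at most 1.84. These 2 genes did not set every IM group apart. *Wt1* was lower in IM1 (6.39 TPM) than in ESC (11.9 TPM). *Gata4* was lower in IM1 (75.8 TPM), IM2 (141 TPM) and IM5 (96.3 TPM) than in M (149.9 TPM). In iSLC, *Nr5a1* (93.8 TPM) and *Dmrt1* (213 TPM), the genes that the lentiviruses carry, were high. Other Sertoli markers gave less. *Sox9* averaged 24.8 TPM against 40 in IM3 and *Cst9* 1.5 against 4.41, whereas *Dhh* averaged 1.86 against 0.7. *Amh* averaged 0.56 TPM in iSLC and *Ptgds* 0.493.

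Of the 58 genes, 45 exceeded 5 TPM on average in at least 1 group. These were 11 of the 18 ligands, all 14 receptors, 5 of 9 genes of the R-spondin group, 8 of 10 antagonists and all 7 factors and targets. The 13 others were *Wnt1*, *Wnt3a*, *Wnt7a*, *Wnt9b*, *Wnt10a*, *Wnt10b*, *Wnt16*, *Rspo2*, *Rspo4*, *Lgr6*, *Rnf43*, *Sfrp4* and *Wif1*. M held the highest mean level for 14 of the 58 genes and iSLC for 13. In the 11 comparisons, 44 genes were DE at least once, and *Wnt3*, *Frzb*, *Dkk1*, *Lef1* and *Nkd1* were DE in 6 each. The share of all genes DE at least once was not computed, so the 44 have no background here. The 14 that were DE in none included *Lrp5*, *Lrp6* and *Znrf3*, which were expressed in every group.

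**Figure D1:**
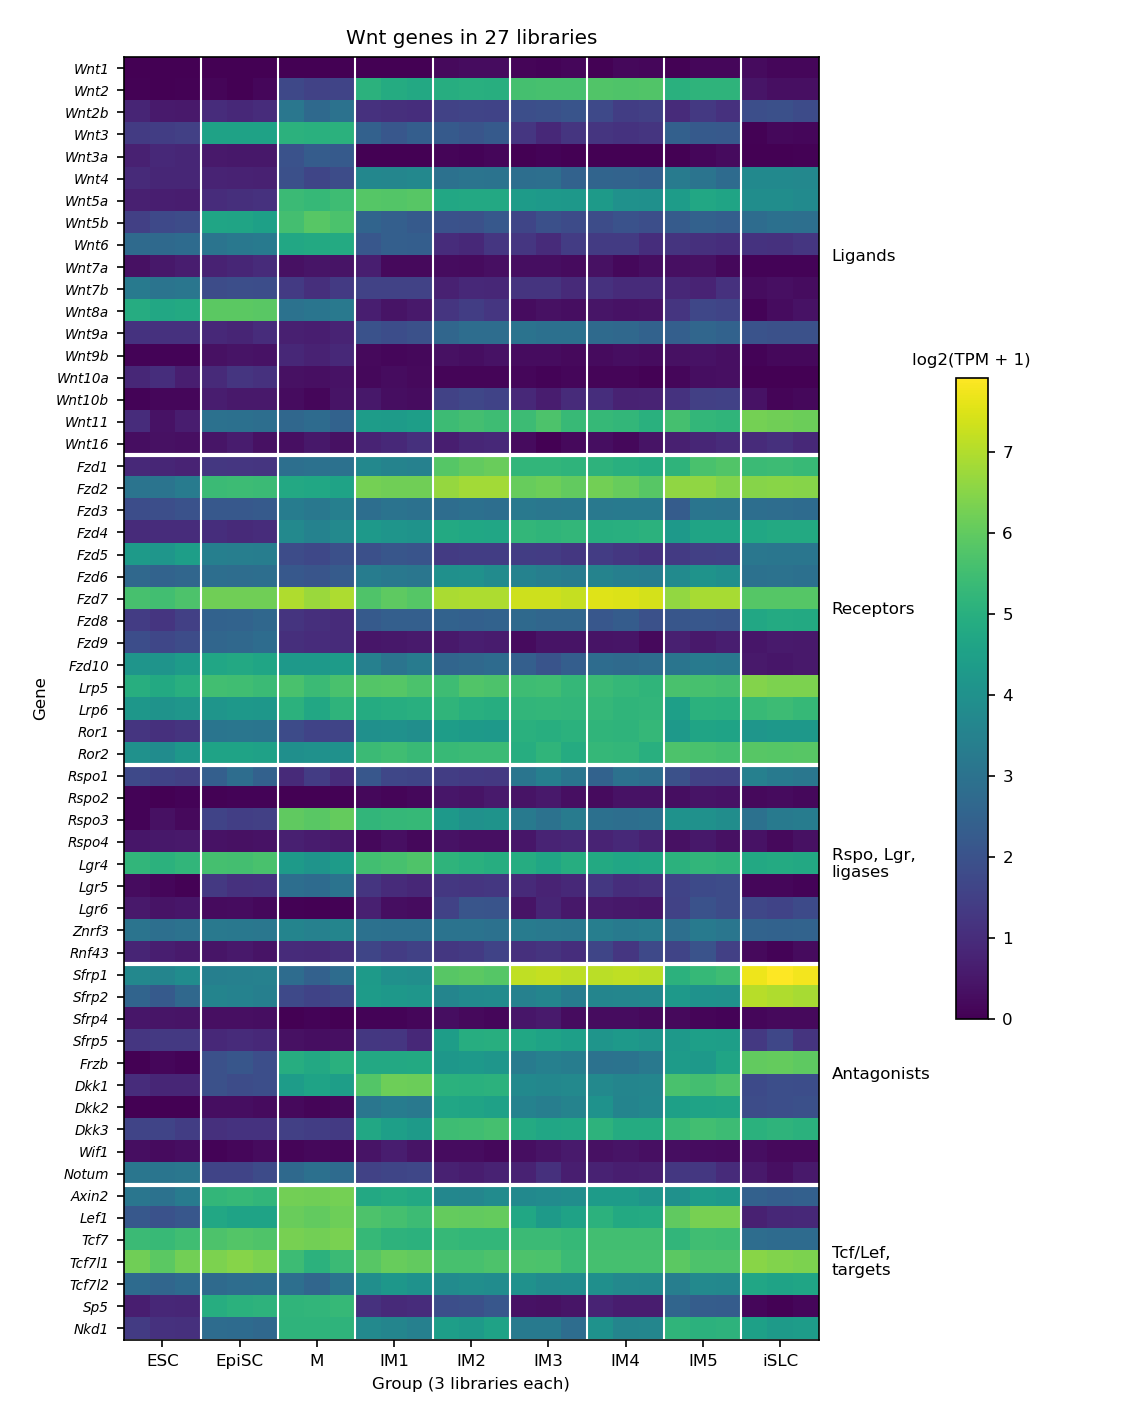
Levels of the 58 Wnt genes (rows, ordered by role) in the 27 libraries (columns, 3 per group) as log2(TPM + 1), from dark (low) to yellow (high). Many receptors were bright in every column, ligands changed from group to group, and Sfrp1 and Sfrp2 were brightest in iSLC.

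The summed level of the ligands was 51.1 ± 2.4 TPM in ESC, 129.8 ± 1.7 in EpiSC, 183 ± 4.04 in M, between 125 and 137 on average in the 5 IM groups, and 114 ± 4.36 in iSLC (mean ± SD, n = 3). The leading ligand changed from stage to stage. *Wnt8a* took 53.6% of the sum in ESC and 45.6% in EpiSC, *Wnt5b* 27.9% in M, *Wnt5a* 40.8% in IM1, *Wnt2* 35.8% in IM3 and *Wnt11* 63.7% in iSLC. These shares are descriptions and were not tested.

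*Wnt8a*, a canonical ligand of the early embryo, was at 29.2, 25.8 and 27.1 TPM in the ESC libraries, 59.4, 59.9 and 58.3 in EpiSC and 6.93, 7.53 and 8.16 in M, and at most 2.25 TPM in any later library. *Wnt3*, the ligand needed for the primitive streak, was at 1.61, 1.7 and 1.8 TPM in ESC, 22.9, 22.8 and 22.7 in EpiSC and 33.4, 31.8 and 32.4 in M. No libraries of either gene overlapped between these 3 stages. *Wnt3* was lower again in IM1 (3.47 to 4.46 TPM) and lowest of the IM groups in IM3 (0.9 to 1.37 TPM). *Wnt5b*, a relative of *Wnt5a* that acts largely without beta-catenin, stood at 46, 57.6 and 50.1 TPM in M against 1.82, 2.33 and 2.55 in ESC, and at most at 6.53 TPM afterwards. *Wnt5a* itself was nearly silent in ESC (0.56 to 0.62 TPM) and EpiSC (1.02 to 1.21 TPM) and stood at 41.4, 39 and 43.3 TPM in M and 55.7, 55.4 and 57 in IM1. *Wnt6* was highest in M (25.9, 27 and 27.5 TPM), as were the less abundant *Wnt2b* (5.6 to 7.87 TPM) and *Wnt3a* (2.96 to 3.95 TPM). *Wnt7b* was highest in ESC (7.25 to 8.55 TPM).

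Other ligands led in the IM groups. *Wnt2* had 1.94 to 2.28 TPM in M, 26.2 to 32.7 in IM1, 29.5 to 30.8 in IM2, 47.4 to 48.5 in IM3, 52.9 to 54.1 in IM4 and 31.5 to 34.7 in IM5. *Wnt11*, which is known for cell movements rather than beta-catenin, had 4.62 to 5.83 TPM in M, 19.5 to 20.8 in IM1, 39.2 to 50.8 in IM3 and 69.1 to 76.4 in iSLC. *Wnt9a* was at 6.64 to 7.06 TPM in IM3 against 0.57 to 0.73 in M. *Wnt4*, a ligand of the ovarian pathway, was at 11.5 to 12 TPM in IM1 and 12.1 to 12.5 in iSLC, and between 4.42 and 8.79 in the other IM groups.

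**Figure D2:**
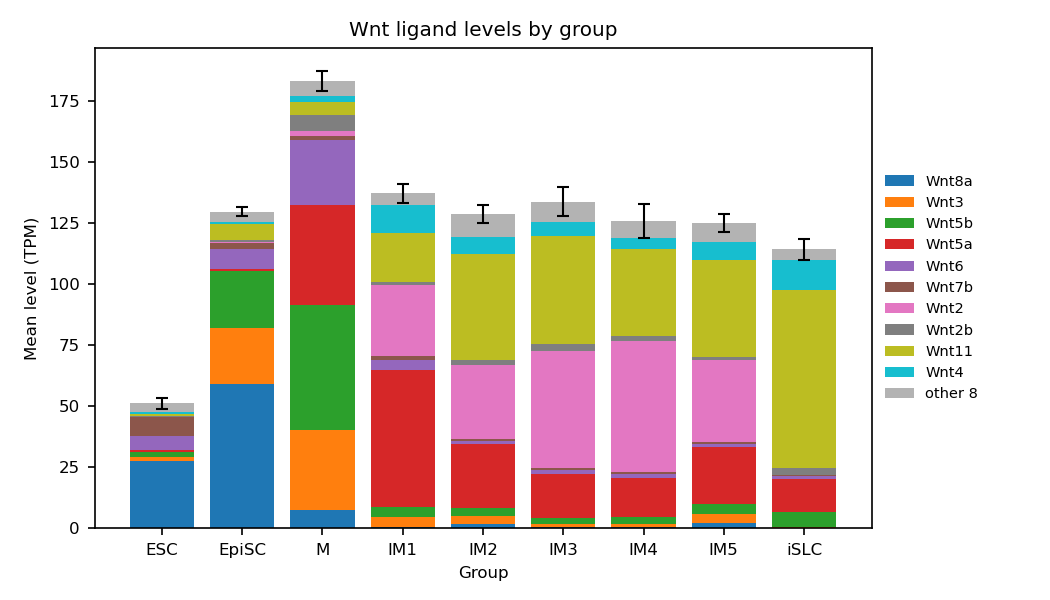
Mean TPM (vertical axis) of the Wnt ligands in each group (horizontal axis), stacked by gene, with the 8 ligands of lowest level joined in grey. Error bars are the SD of the summed ligand level over 3 libraries, and the sum was highest in M (183 TPM) while the leading gene changed from Wnt8a to Wnt5b, Wnt5a, Wnt2 and Wnt11.

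Receptors were present throughout, with summed levels from 168 ± 12.7 TPM in ESC to 493 ± 17.9 in IM2. *Fzd7* led in ESC, EpiSC, M, IM2, IM3, IM4 and IM5, and *Fzd2* in IM1 and iSLC. *Fzd7* stood at 44.9 to 50.9 TPM in ESC, 104 to 124 in M, 52.8 to 61.1 in IM1, 150.1 to 159 in IM3 and 55.5 to 56.3 in iSLC. *Fzd2* was at 7.19 to 8.92 TPM in ESC, 41 to 41.8 in EpiSC, 64 to 70.7 in IM3 and 88.9 to 89.7 in iSLC. *Fzd5*, *Fzd9* and *Fzd10* were highest at early stages. *Fzd5* was at 17 to 20.9 TPM in ESC and 1.46 to 1.71 in IM3, *Fzd10* at 24.4 to 26.5 in EpiSC and 0.39 to 0.46 in iSLC, and *Fzd9* at 5.08 to 6.02 in EpiSC and at most 1.11 in any later library. *Fzd1* and *Fzd4* had the opposite course, with 0.71 to 0.87 and 0.96 to 1 TPM in ESC and 34.5 to 35.8 and 35.3 to 37.2 in IM3. The co-receptors had narrower ranges: *Lrp5* lay between 26.8 and 56.4 TPM and *Lrp6* between 15.9 and 37.7 TPM before iSLC, where they were at 81.2 to 86.8 and 38.7 to 42.1. *Ror1* and *Ror2*, receptors of *Wnt5a* outside the beta-catenin branch, were at 30.4 to 32.4 and 28.5 to 35 TPM in IM3 against 2.04 to 2.49 and 14.4 to 15.2 in M. *Fzd3* and *Fzd6* did not exceed 9.79 and 15.8 TPM in any library, and *Fzd8* reached 26.1 to 27.8 TPM in iSLC and at most 5.51 before it.

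*Rspo3* was the most abundant R-spondin in M. Its libraries were at 0.06, 0.27 and 0.14 TPM in ESC, 2.02, 1.76 and 1.82 in EpiSC, 63.1, 58.6 and 65.8 in M, 36.3, 37.4 and 38.2 in IM1 and 8.62, 6.88 and 8.89 in IM3. *Rspo1* had the opposite order, at 0.91, 1.63 and 1.01 TPM in M and 7.38, 9.78 and 7.51 in IM3, and it was at 7.81 to 9.96 in iSLC. For neither gene did the libraries of M and IM3 overlap. Of the Lgr receptors, *Lgr4* was the one well expressed in every group (16 to 52.5 TPM). *Lgr5*, itself a target of the pathway, was highest in M at 5.83 to 7.12 TPM and stood at 0.73 to 0.91 in IM3 and 0.05 to 0.11 in iSLC. *Lgr6* was at 1.94 to 3.26 TPM in IM2, IM5 and iSLC and at most 0.76 elsewhere. *Znrf3* stayed between 4.64 and 11.2 TPM in all 27 libraries, and *Rnf43* did not exceed 3.09 TPM.

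The summed level of the antagonists was 29.4 ± 1.99 TPM in ESC, 30.9 ± 0.28 in EpiSC, 66.5 ± 1.8 in M, 159.9 ± 4.36 in IM1, 237 ± 5.58 in IM3 and 453 ± 19.8 in iSLC. Set against the summed ligands of the same library, this gave a ratio of 0.238 ± 0.0014 in EpiSC, 0.363 ± 0.0108 in M, 1.77 ± 0.0448 in IM3 and 3.97 ± 0.168 in iSLC (mean ± SD, n = 3). The ratio compares RNA levels and says nothing of protein. *Sfrp1*, which binds Wnt ligands, was at 11.3 to 13.5 TPM in ESC, 4.53 to 5.94 in M, 14 to 19 in IM1, 140.5 to 149 in IM3 and 211 to 241 in iSLC. *Sfrp5* lay between 16.4 and 30.3 TPM in IM2 to IM5, the media with retinoic acid, and at most at 2.19 TPM in the other groups. *Dkk1*, a blocker of *Lrp5* and *Lrp6* and also a target of the pathway, was at 54.6, 71.6 and 69.3 TPM in IM1 and 12.6, 11.8 and 12.1 in IM3. *Dkk2* and *Dkk3* were low up to M (at most 0.22 and 2.1 TPM) and stood at 7.63 to 24.7 and 18.8 to 47.1 TPM in the IM groups. *Frzb* was at 26.7 to 31.9 TPM in M, 26.6 to 27.3 in IM1, 8.74 to 9.87 in IM3 and 61.4 to 65.5 in iSLC. *Notum*, a secreted enzyme that removes the lipid of Wnt ligands, was highest in ESC (7.38 to 7.76 TPM) and M (5.58 to 6.55 TPM). Genes on the opposite strand overlap 38.1% of its exons, and whether counting used strand is not given in the sources used here. Such overlaps also cover 17.8% of *Fzd5*, 16.1% of *Sfrp2*, 13.7% of *Lef1* and 13.1% of *Rspo3*.

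**Figure D3:**
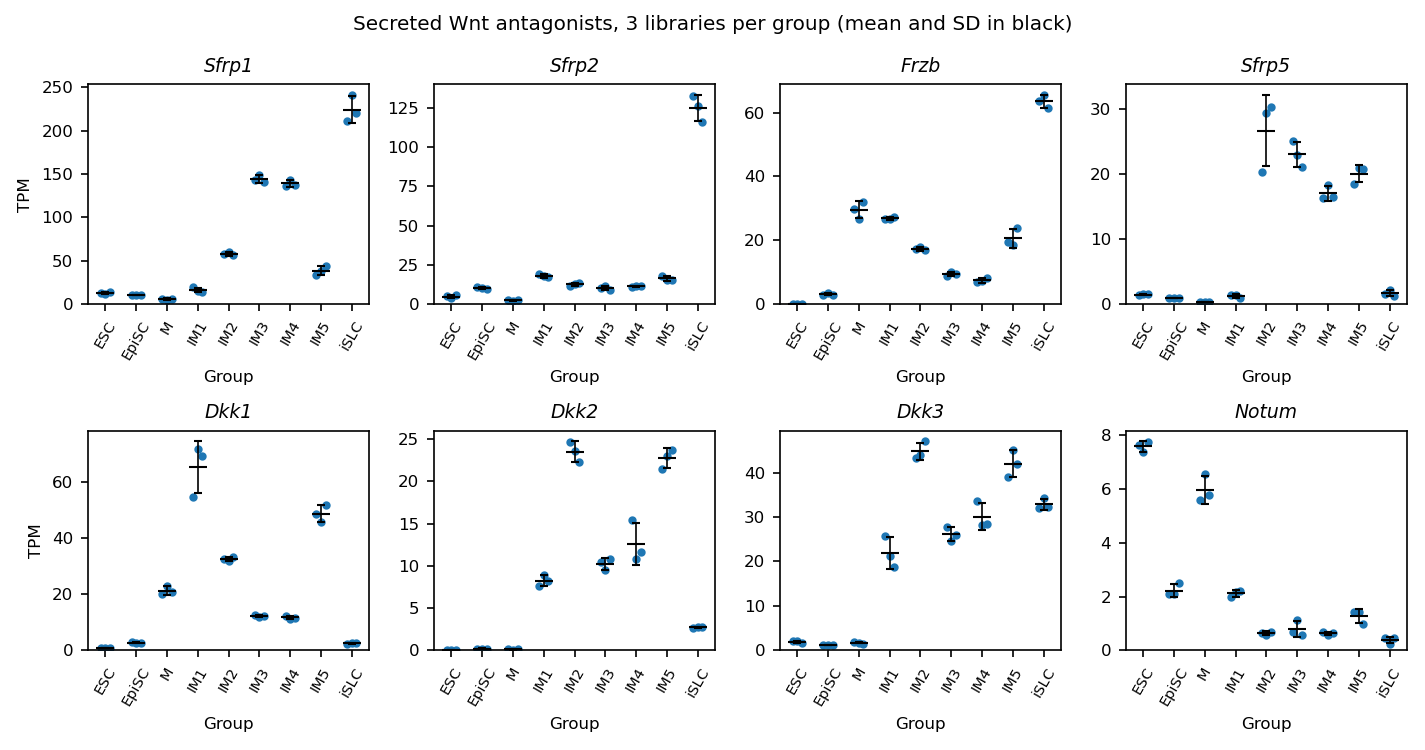
TPM (vertical axes, linear from 0) of 8 secreted antagonists in the 9 groups, with 1 point per library and the mean and SD in black. Sfrp1, Sfrp2 and Frzb were highest in iSLC, Dkk1 in IM1, Sfrp5 was high only in IM2 to IM5, and Notum was highest in ESC.

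*Axin2*, *Sp5*, *Nkd1* and *Tcf7* had their highest mean in M. *Axin2*, the most general feedback target, was at 7.72, 6.96 and 8.82 TPM in ESC, 36.8, 38.9 and 36 in EpiSC, 74.5, 72.8 and 75.2 in M, 26.7, 28.5 and 26.3 in IM1, 12.6, 13.1 and 13.8 in IM3 and 4.53, 4.18 and 4.42 in iSLC. No library of these groups overlapped with those of the next. *Sp5*, a repressor that is itself induced by beta-catenin, was at 0.59, 0.86 and 0.79 TPM in ESC, 29.5, 32.5 and 33.6 in EpiSC, 35.3, 35.8 and 38.2 in M, 1.21, 0.91 and 1.02 in IM1 and 0.3, 0.27 and 0.36 in IM3. It was thus high in EpiSC and M alone. *Nkd1*, which binds Dishevelled, was at 1.16 to 1.59 TPM in ESC, 34.5 to 34.7 in M, 6.15 to 8.7 in IM3 and 18.9 to 21.5 in iSLC. *Lef1* was at 2.99 to 3.49 TPM in ESC, 63.8 to 71.3 in M, 18.8 to 25.1 in IM3 and 0.65 to 0.87 in iSLC. The other nuclear factors had courses of their own. *Tcf7* held 33 to 78.5 TPM up to the IM groups and 5.84 to 6.16 in iSLC. *Tcf7l1*, mainly a repressor, was at 80.3 to 88.8 TPM in EpiSC, 33.3 to 42.5 in M and 80.6 to 89.4 in iSLC, and *Tcf7l2* at 5.08 to 7.27 TPM up to M, 9.48 to 17.1 in the IM groups and 23 to 24.5 in iSLC.

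**Figure D4:**
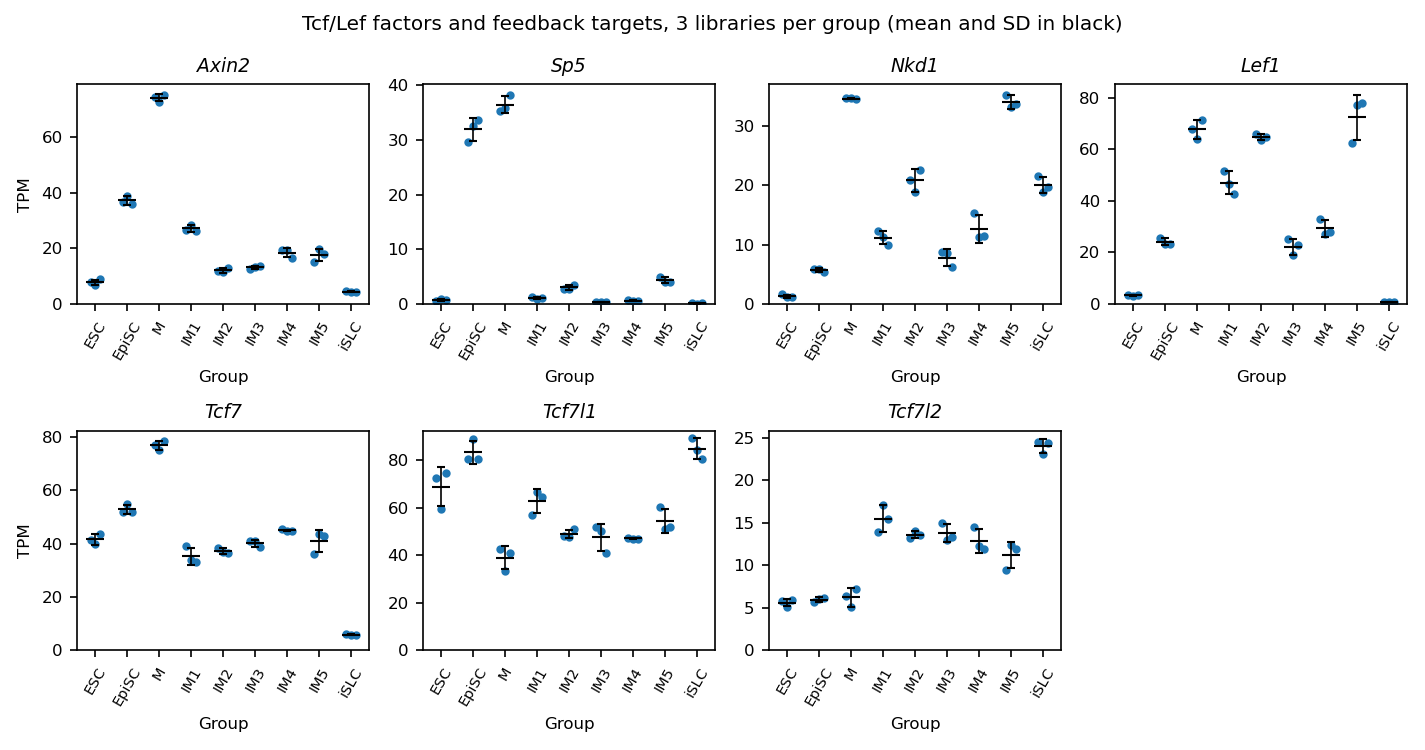
TPM (vertical axes, linear from 0) of the 7 Tcf/Lef factors and feedback targets in the 9 groups, with 1 point per library and the mean and SD in black. Axin2, Sp5 and Tcf7 were highest in M, Lef1 and Nkd1 had overlapping libraries in M and IM5, and Tcf7l2 was highest in iSLC.

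The promoter windows of 3 of these genes are printed here to show what lies at the start of *Axin2*, the most general target, of *Sp5*, whose level spanned the widest range among the targets, and of *Dkk1*, whose response to CHIR99021 passed the threshold of the interaction with Activin A in the fit of all libraries. Each window runs from 250 bases before to 50 bases after a gene start of RefSeq, on GRCm38.p6, and was searched on both strands for CTTTGA, core letters that Tcf and Lef factors bind, or its reverse TCAAAG. Capitals mark matches.
Sp5, chr2:70474673-70474972, plus strand: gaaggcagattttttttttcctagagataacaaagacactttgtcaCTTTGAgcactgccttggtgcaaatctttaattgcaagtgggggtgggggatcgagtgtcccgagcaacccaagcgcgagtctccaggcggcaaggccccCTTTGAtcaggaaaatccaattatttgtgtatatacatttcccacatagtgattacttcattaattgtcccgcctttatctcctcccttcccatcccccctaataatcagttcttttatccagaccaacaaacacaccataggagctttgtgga
Dkk1, chr19:30549447-30549746, minus strand: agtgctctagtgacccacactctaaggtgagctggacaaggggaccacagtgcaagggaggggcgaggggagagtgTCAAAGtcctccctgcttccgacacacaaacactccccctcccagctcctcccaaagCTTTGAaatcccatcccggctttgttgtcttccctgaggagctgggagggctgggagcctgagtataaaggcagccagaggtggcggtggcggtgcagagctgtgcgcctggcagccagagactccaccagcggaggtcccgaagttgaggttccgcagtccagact
Axin2, chr11:108920099-108920398, plus strand: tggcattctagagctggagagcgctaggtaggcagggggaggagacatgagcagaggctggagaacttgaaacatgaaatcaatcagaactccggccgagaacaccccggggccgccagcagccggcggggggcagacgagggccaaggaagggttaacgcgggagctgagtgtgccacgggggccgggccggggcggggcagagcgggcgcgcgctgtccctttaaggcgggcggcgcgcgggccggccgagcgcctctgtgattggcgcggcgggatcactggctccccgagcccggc
The *Sp5* window held 2 matches, which begin 204 and 104 bases before the start, and the *Dkk1* window held 2, at 174 and 117 bases. The *Axin2* window held 0. Windows were at hand for 40 of the 58 genes. Of their 49 windows, 8 (16.3%) held a match, against 16% of all 32851 windows, and 1.73% of all windows held at least 2. A match is a run of letters and not a measured binding site, and 0 matches say only that these letters are not in this window.

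From ESC to EpiSC, 22 of the 58 genes were DE (19 up, 3 down), or 37.9%, where 8.07% of all 20839 genes tested were (3.75% up, 4.32% down). Without the fold minimum 37 passed, or 63.8%, against 37.7% of all genes. The background in this and the other comparisons includes genes too low to reach the count minimum. Among ligands 5 rose, led by *Wnt3* (log2 fold change 3.77 ± 0.12, SE), *Wnt11* (3.57 ± 0.22) and *Wnt5b* (3.397 ± 0.12), and *Wnt7b* fell by 1.498 on the log2 scale. Among receptors *Ror1* (2.63), *Fzd2* (2.44) and *Fzd8* (1.65) rose most and *Fzd5* fell by 1.05, a call that was lost with the GC offset, with the effective length offset and without ESC replicate 3. *Lgr5* (4.44), *Rspo3* (3.44) and *Rspo1* (1.42) rose, and the call of *Rspo3* was lost in a fit of only these 2 groups. *Frzb* (5.52), *Dkk1* (1.71) and *Sfrp2* (1.17) rose and *Notum* fell by 1.72. Of the 7 factors and targets *Sp5* (5.405), *Lef1* (2.93), *Axin2* (2.18) and *Nkd1* (2.06) rose, and 0 fell. The adjusted p-values of these DE genes were at most 3.16e-07 (edgeR quasi-likelihood test). ESC and EpiSC lie on different sides.

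From EpiSC to M, 27 of 58 were DE (17 up, 10 down), or 46.6%, where 14.5% of all genes were (6.79% up, 7.72% down). *Wnt5a* rose by 5.18 ± 0.07 (SE), *Wnt2* by 4.93 ± 0.22 and *Wnt2b* by 2.73 ± 0.14 on the log2 scale, and *Wnt8a* fell by 3.05. *Wnt7b* also passed, but its fall of 1.005 came to -0.54 with the GC offset, which ended the call. The call was also lost with the effective length offset, with no filter on low counts, in a fit of only these 2 groups and without EpiSC replicate 2 or M replicate 2. *Fzd4* (3.501), *Fzd1* (2.195) and *Fzd3* (1.23) rose, while *Fzd9* fell by 2.49, *Fzd8* by 2.200 and *Fzd5* by 1.84. *Fzd9* lost its call without EpiSC replicate 1, 2 or 3, and *Wnt2* and *Rnf43* lost theirs in a fit of only these 2 groups. *Rspo3* (4.99), *Lgr5* (2.18) and *Rnf43* (1.16) rose, and *Rspo1* fell by 2.08 and *Lgr4* by 1.45. Of the antagonists *Frzb* (3.35), *Dkk1* (2.88) and *Notum* (1.42) rose and *Sfrp2* fell by 2.203. *Nkd1* (2.65) and *Lef1* (1.41) rose, and *Tcf7l1* fell by 1.12, a call that was lost with the GC offset. *Axin2* differed by 0.999 ± 0.06 with an adjusted p of 1.68e-14, just short of a fold of 2, and *Sp5* by 0.12 with an adjusted p of 0.309. The DE genes had adjusted p-values of at most 3.29e-06. EpiSC and M lie on different sides.

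From M to IM1, where neither retinoic acid, Activin A nor CHIR99021 was added, 29 of 58 were DE (16 up, 13 down), or 50%, against 15.7% of all genes (9.72% up, 5.94% down). *Wnt2* (3.69), *Wnt4* (2.13) and *Wnt9a* (2.06) rose most among ligands, and *Wnt8a* fell by 4.14, *Wnt5b* by 3.65 and *Wnt3* by 3.12. *Ror1* (2.63), *Fzd8* (1.78) and *Fzd2* (1.47) rose, and *Fzd10* fell by 1.19 and *Fzd7* by 1.15. *Lgr4* rose by 1.32 and *Lgr5* fell by 2.65. Of the antagonists *Dkk2* (6.01), *Dkk3* (3.59) and *Sfrp2* (2.86) rose most, and *Notum* fell by 1.59. *Sp5* fell by 5.23, *Nkd1* by 1.89 and *Axin2* by 1.696, and *Tcf7l2* rose by 1.13, a call that was lost with the GC offset. The DE genes had adjusted p-values of at most 6.46e-11, and M and IM1 lie on different sides.

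From M to IM3, which lie on the same side, 32 of 58 were DE (16 up, 16 down), or 55.2%, against 14.9% of all genes (9.26% up, 5.66% down). *Wnt2* (4.32 ± 0.09, SE), *Wnt9a* (3.22 ± 0.11) and *Wnt11* (2.93 ± 0.14) rose most, and *Wnt8a* fell by 5.21, *Wnt3* by 4.93 and *Wnt5b* by 4.57. *Ror1* (3.65), *Fzd1* (2.23) and *Fzd8* (2.05) rose and *Fzd10* fell by 2.45. *Rspo1* rose by 2.57, while *Lgr5* fell by 3.17 and *Rspo3* by 3.13. *Sfrp5* (6.36), *Dkk2* (6.23) and *Sfrp1* (4.54) rose most among antagonists, and *Notum* fell by 3.68 and *Frzb* by 1.83. Of the 7 factors and targets 0 rose and 5 fell, led by *Sp5* (by 7.07), *Axin2* (by 2.69) and *Nkd1* (by 2.49). The DE genes had adjusted p-values of at most 6.16e-08. M is shared with the previous comparison, and IM3 with the next ones.

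Retinoic acid was the difference between IM3 and IM1, and 20 of 58 genes were DE (10 up, 10 down), or 34.5%, against 6.34% of all genes (2.62% up, 3.72% down). Without the fold minimum 35 passed, or 60.3%, against 34.5% of all genes. *Sfrp1* was at 19, 14.8 and 14 TPM without and 143, 149 and 140.5 with retinoic acid, and rose by 3.09 ± 0.09 (SE, adjusted p = 2.75e-19) on the log2 scale. *Sfrp5* was at 1.41, 1.38 and 0.89 TPM without and 25.1, 23 and 21.1 with it, and rose by 4.14 ± 0.16 (adjusted p = 3.75e-17). In both genes every library with retinoic acid was above all without it. *Dkk1* fell by 2.51, *Notum* by 2.08 and *Frzb* by 1.87, so antagonists moved both ways, although the call of *Notum* was lost in a fit of only these 2 groups. *Rspo1* rose by 1.702 and *Rspo3* fell by 2.29. Ligands that rose were *Wnt2b* (1.31), *Wnt11* (1.17) and *Wnt9a* (1.16), and those that fell most were *Wnt3* (by 1.81), *Wnt5a* (by 1.67) and *Wnt6* (by 1.59). *Fzd1* (1.61), *Fzd7* (1.37) and *Fzd4* (1.03) rose and *Fzd10* fell by 1.26, and the call of *Fzd4* was lost without IM1 replicate 3. *Lef1* fell by 1.19 and was the one DE gene among the 7 factors and targets. *Axin2* differed by -0.99 (adjusted p = 2.59e-13) at a fold just under 2. The 4 endothelial markers summed to 119.9 to 132 TPM in IM1 and 62.4 to 73.8 in IM3, and the 4 cardiac ones to 84.9 to 103 and 139.5 to 267 TPM. The endothelial *Tek* and the cardiac *Nkx2-5* moved against these sums, averaging 17.8 and 2.86 TPM in IM1 and 26.8 and 1.25 in IM3. Neural markers summed to 16.3 to 23.2 TPM in IM1, where *Sox3* averaged 20.1, and 0.25 to 0.48 in IM3, and early mesoderm markers to 8.69 to 10.9 and 1.29 to 1.94 TPM. Intermediate mesoderm and genital ridge markers summed to 96.3 to 109 TPM in IM1 and 527 to 565 in IM3, although *Osr1*, *Lhx1* and *Pax2* were lower in IM3. Their part in these changes was not tested, and IM1 and IM3 lie on different sides.

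Activin A was the difference between IM2 and IM3, and 11 of 58 genes were DE (9 up, 2 down), or 19%, against 3.8% of all genes (2.46% up, 1.34% down). Without the fold minimum 28 passed, or 48.3%, against 26.1% of all genes. *Sp5* was at 0.3, 0.27 and 0.36 TPM without and 2.75, 2.81 and 3.44 with Activin A, and rose by 3.31 ± 0.204 (SE, adjusted p = 1.04e-12) on the log2 scale. *Lef1* was at 25.1, 18.8 and 22.7 TPM without and 65.8, 63.4 and 64.6 with it, and rose by 1.58 ± 0.08 (adjusted p = 4.67e-14). *Nkd1* was at 8.7, 8.51 and 6.15 TPM without and 20.9, 18.9 and 22.7 with it, and rose by 1.44 ± 0.09 (adjusted p = 1.2e-12). No libraries of these 3 targets overlapped, although the call of *Sp5* was lost in a fit of only these 2 groups. *Axin2* stood at 11.5 to 13 TPM against 12.6 to 13.8, with a log2 fold change of -0.32 (adjusted p = 0.000176) under the fold minimum. *Rspo1* fell by 2.397 and *Sfrp1* by 1.299, while *Lgr6* (2.41), *Wnt3* (1.58), *Dkk1* (1.44), *Dkk2* (1.22), *Frzb* (1.13) and *Rspo3* (1.05) rose. The call of *Rspo3* was lost without IM2 replicate 1 or IM3 replicate 2, and that of *Frzb* with the effective length offset. Of the 14 receptors 0 were DE (edgeR). Of them 9 passed without the fold minimum, a rule that 26.1% of all genes passed, among them *Fzd1* (0.85), *Fzd2* (0.72) and *Ror1* (-0.704). Early mesoderm markers summed to 21.5 to 22 TPM in IM2, where *Eomes* averaged 18.2, and 1.29 to 1.94 in IM3, and neural ones to 5.9 to 8.48 and 0.25 to 0.48 TPM. Both sums were higher in the medium in which *Sp5*, *Lef1* and *Nkd1* rose. *Sox3* made up most of the neural sum, at 7.02 TPM on average in IM2 and 0.243 in IM3, and the other neural markers averaged at most 0.237 in either. Cardiac markers summed to 97.5 to 117 TPM in IM2 and 139.5 to 267 in IM3, and endothelial ones to 76.5 to 81.3 and 62.4 to 73.8 TPM. Here too *Nkx2-5* and *Tek* moved against these sums, averaging 1.61 and 16.9 TPM in IM2 and 1.25 and 26.8 in IM3. Intermediate mesoderm and genital ridge markers summed to 196 to 201 TPM in IM2 and 527 to 565 in IM3, although *Osr1*, *Lhx1* and *Pax2* were higher in IM2. The part of all these markers was not tested, and IM2 and IM3 lie on different sides.

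At 0.3 µM CHIR99021, none of the 58 genes was DE in IM4 against IM3, IM5 against IM2 or the mean of both. In these comparisons 26, 29 and 31 of them had an unadjusted p under 0.05 (edgeR), a share that was not computed for all genes. Of all genes, 0.101%, 0.235% and 0.12% were DE in these comparisons, with 0%, 0.0432% and 0.0144% up and 0.101%, 0.192% and 0.106% down. Without the fold minimum, 6 of 58 (5 up, 1 down) passed in IM4 against IM3, or 10.3%, against 0.945% of all genes (0.206% up, 0.739% down). In IM5 against IM2, 12 of 58 (9 up, 3 down) passed, or 20.7%, against 3.88% (1.4% up, 2.48% down). In the mean of both, 19 of 58 (12 up, 7 down) passed, or 32.8%, against 4.56% (1.65% up, 2.91% down). A fit of only the 2 groups compared left 2 and 5 genes in the single comparisons. For IM3 and IM4, that fit passed 9 once the replicate number was added as a block. Leaving out IM2 replicate 2 left 7 in IM5 against IM2. Without the IM5 library that stood apart, 10 passed there. The shares of all genes under these alternatives were not computed, so these counts have no background here. The mean is built from the same libraries and adds no independent evidence.

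The feedback targets *Nkd1* and *Axin2* passed in both pairs. *Nkd1* stood at 8.7, 8.51 and 6.15 TPM in IM3 and 15.3, 11.2 and 11.4 in IM4 (log2 fold change 0.77, 95% interval 0.58 to 0.96, adjusted p = 1.48e-05), and at 20.9, 18.9 and 22.7 in IM2 and 35.3, 33.2 and 33.8 in IM5 (0.81, 0.64 to 0.97, adjusted p = 2.43e-07). *Axin2* stood at 12.6, 13.1 and 13.8 TPM in IM3 and 19.5, 19.3 and 16.5 in IM4 (0.46, 0.34 to 0.59, adjusted p = 5.02e-05), and at 11.8, 11.5 and 13 in IM2 and 15.1, 19.6 and 18 in IM5 (0.64, 0.51 to 0.76, adjusted p = 1.13e-07). For both genes the libraries with and without CHIR99021 did not overlap in either pair. *Lef1* passed in IM4 (0.44, adjusted p = 0.00273), a call that was lost without IM3 replicate 2 or IM4 replicate 1. In IM5 against IM2, where *Lef1* was at 63.4 to 65.8 TPM without CHIR99021, its difference was 0.22 (adjusted p = 0.0884). *Sp5* passed in IM5 (0.602, adjusted p = 0.00218), with 2.75, 2.81 and 3.44 TPM in IM2 and 4.95, 4.09 and 3.99 in IM5, but not without IM2 replicate 1, IM2 replicate 2 or IM5 replicate 1. In IM4 its difference was 1.01 (0.45 to 1.57, adjusted p = 0.0479), at counts under the count minimum. *Tcf7* differed by 0.19 and 0.19 (adjusted p = 0.0498 and 0.0233).

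Among regulators at the membrane and receptors, fewer passed in both. *Lgr5* differed by 0.599 (adjusted p = 0.0876) in IM4 and passed in IM5 with 0.68 (adjusted p = 0.00509), but not without IM2 replicate 1, 2 or 3 or IM5 replicate 2 or 3. *Znrf3* differed by 0.18 and 0.18 (adjusted p = 0.0606 and 0.0248) and passed in the mean (0.18, adjusted p = 0.00119). *Rnf43* differed by 0.295 and 0.27 (adjusted p = 0.527 and 0.329). *Notum* differed by 0.26 (adjusted p = 0.701) in IM4, a sign that turned with the effective length offset, and by 1.08 (adjusted p = 0.000157) in IM5, under the count minimum. *Fzd10* passed in both pairs, at 4.27, 3.18 and 4.12 TPM in IM3 and 5.96, 5.66 and 6.15 in IM4 (0.65, adjusted p = 0.000514), and at 4.95, 5.4 and 5.86 in IM2 and 7.45, 8.4 and 8.08 in IM5 (0.62, adjusted p = 0.000103), with no overlap in either. *Fzd8* fell by 0.57 in IM4 (adjusted p = 0.00151), but not without IM3 replicate 1 or IM4 replicate 3. *Fzd7* passed there with 0.23 (adjusted p = 0.00817), a call lost without IM3 replicate 1, 2 or 3 or IM4 replicate 1, 2 or 3. In IM5, *Fzd1* fell by 0.404, *Wnt2b* by 0.67 and *Sfrp1* by 0.54, and *Dkk1* (0.65), *Sfrp2* (0.48), *Frzb* (0.41) and *Ror2* (0.33) rose. The calls of *Fzd1* and *Wnt2b* were lost without IM2 replicate 2 or 3 or IM5 replicate 1, that of *Wnt2b* also without IM5 replicate 3, and that of *Ror2* without IM2 replicate 1, 2 or 3 or IM5 replicate 1 or 3. Across the 10 genes *Axin2*, *Lef1*, *Tcf7*, *Sp5*, *Nkd1*, *Znrf3*, *Rnf43*, *Notum*, *Lgr5* and *Dkk1*, the log2 fold change was above 0 in 9 in IM4 and in 10 in IM5. Their medians were 0.37 and 0.62, where the median of all genes tested was 0.012 and 0.001. Of all 58 genes, 32 were above 0 in IM4 and 38 in IM5, with medians of 0.057 and 0.135. The share of all genes above 0 was not computed, and the 10 were chosen with earlier results of these data known.

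**Figure D5:**
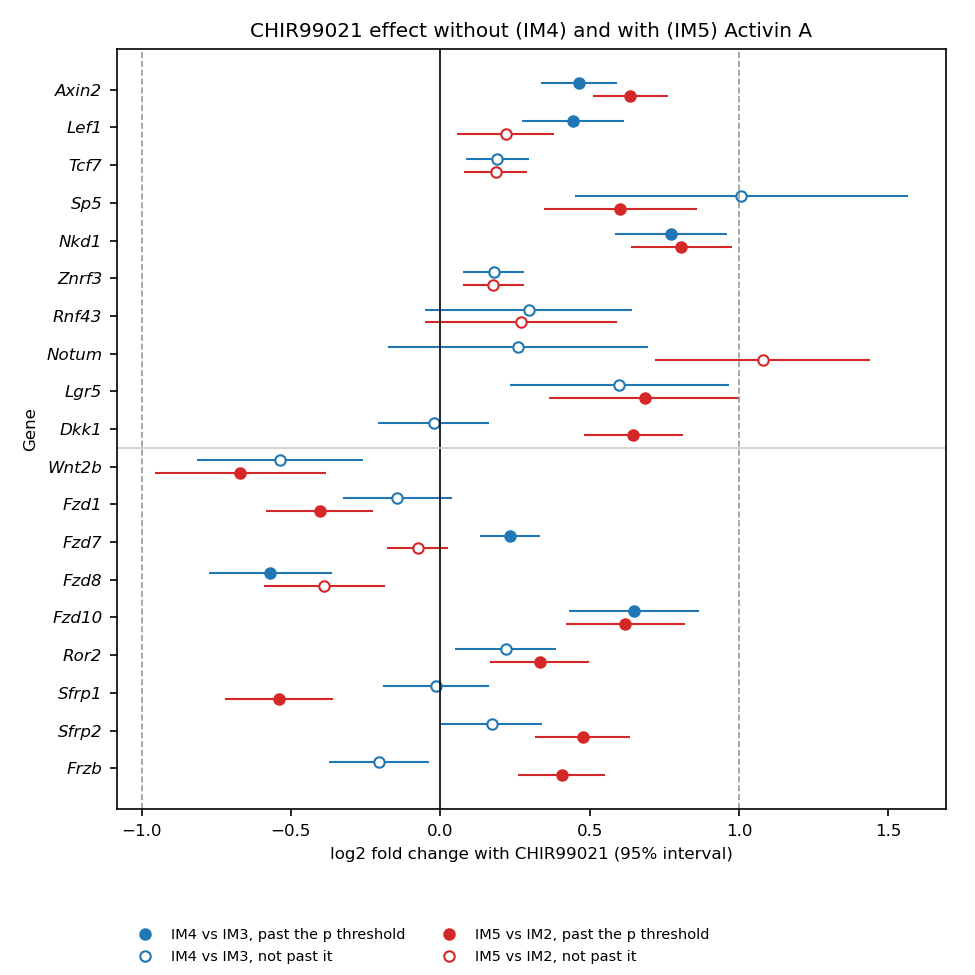
Log2 fold change (horizontal axis) with 0.3 µM CHIR99021 for 10 targets and regulators (upper part) and the other Wnt genes past the p threshold in either pair (lower part), in IM4 against IM3 (blue) and IM5 against IM2 (red), with 95% intervals. Filled points passed the p and count thresholds, dashed lines mark a factor of 2, and Axin2, Nkd1 and Fzd10 were filled in both.

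The sum of the cardiac markers was lower in the media with CHIR99021. They summed to 139.5 to 267 TPM in IM3 and 75.5 to 83 in IM4, and to 97.5 to 117 in IM2 and 49.1 to 55.2 in IM5. Endothelial markers summed to 62.4 to 73.8 TPM in IM3, 67.6 to 78.6 in IM4, 76.5 to 81.3 in IM2 and 68.1 to 72.7 in IM5. The sums of the neural markers were 0.25 to 0.48, 0.59 to 0.88, 5.9 to 8.48 and 13 to 15.3 TPM in these groups, in the same order. *Sox3* made up most of them, averaging 0.243 TPM in IM3, 0.58 in IM4, 7.02 in IM2 and 13.3 in IM5. *Sox1*, *Pax6* and *Olig2* averaged at most 0.31 TPM in any of these groups, and *Sox1* and *Pax6* were lower in IM4 than in IM3. The intermediate mesoderm and genital ridge markers summed to 527 to 565 TPM in IM3 and 388 to 428 in IM4. In IM2 they summed to 196 to 201 TPM and in IM5 to 134 to 139. *Gata4* and *Wt1* made up most of these sums. Against them, *Pax2* was higher on average with CHIR99021 in both pairs, *Lhx1* in IM4 and *Osr1* in IM5. The part of these markers in the changes of the Wnt genes was not tested.

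*Dkk1* and *Frzb* passed the p threshold for a difference in the CHIR99021 effect with and without Activin A, in calls that most alternatives by single library ended. *Dkk1* was at 12.6, 11.8 and 12.1 TPM in IM3 and 12.4, 11.3 and 11.5 in IM4 (log2 fold change -0.02, 95% interval -0.21 to 0.16), but at 32.5, 31.7 and 33.1 in IM2 and 48.6, 45.7 and 51.7 in IM5 (0.65, 0.48 to 0.81). The difference of both effects was 0.67 ± 0.12 (SE, adjusted p = 0.00637). *Frzb* was at 8.74, 9.87 and 9.27 TPM in IM3 and 6.87, 7.06 and 8.21 in IM4 (-0.21), and at 17.2, 18 and 16.8 in IM2 and 19.5, 18.4 and 23.9 in IM5 (0.41). Its difference of effects was 0.61 ± 0.11 (adjusted p = 0.00461). These were the 2 of 58 genes past the p threshold of the interaction (2 up, 0 down), or 3.45%, against 0.173% of all genes (0.0528% up, 0.12% down). An unadjusted p under 0.05 (edgeR) was found for 12 of the 58, a share that was not computed for all genes. With the fold minimum 0 of 58 were DE, against 0.0336% of all genes (0.0096% up, 0.024% down). Both calls were lost with the effective length offset and without most single libraries, that of *Dkk1* also under the replicate block and that of *Frzb* also in a fit of only the 4 groups. *Axin2* and *Nkd1* had interaction estimates of 0.17 and 0.04, with adjusted p of 0.49 and 0.962. IM3 and IM4 lie on the other side from IM2 and IM5, so the side and Activin A cannot be told apart in the interaction.

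From IM3 to iSLC, 22 of 58 genes were DE (8 up, 14 down), or 37.9%, against 19.2% of all genes (10.3% up, 8.92% down). Without the fold minimum 36 passed, or 62.1%, against 50.4% of all genes. The steps in between, which include infection, doxycycline, a new medium with Activin A and sorting, cannot be told apart. *Lef1* was at 25.1, 18.8 and 22.7 TPM in IM3 and 0.65, 0.84 and 0.87 in iSLC, and fell by 4.89 on the log2 scale (SE 0.12, adjusted p = 1.63e-22). *Tcf7* fell by 2.796 (adjusted p = 1.38e-23) and *Axin2* by 1.67 (adjusted p = 5.58e-18), whereas *Nkd1* rose by 1.37 (adjusted p = 2.07e-13). Feedback targets thus did not move together. *Tcf7l1* and *Tcf7l2* differed by 0.83 and 0.94, under the fold minimum. *Wnt2* was at 47.4, 47.9 and 48.5 TPM in IM3 and 0.37, 0.24 and 0.24 in iSLC and fell by 7.37 (SE 0.13, adjusted p = 2.52e-25), and *Wnt3* fell by 3.78 and *Wnt7b* by 2.34. *Wnt5b* (1.44) and *Wnt4* (1.11) rose, and the call of *Wnt4* was lost with the GC offset and without IM3 replicate 3. *Rnf43* fell by 3.53 and *Lgr5* by 3.51, *Lgr6* rose by 2.32, and *Rspo1* (0.12) and *Rspo3* (0.02) had adjusted p of 0.528 and 0.9. In a fit of only IM3 and iSLC 10 genes fell in place of 14, and the calls of *Wnt3*, *Wnt7b*, *Lgr5* and *Rnf43* were lost. Of all genes tested, 1794 of 18069 fell in that fit, against 1858 of 20839 in the fit of all libraries. Of the receptors *Fzd8* (2.38) and *Fzd5* (2.22) rose, and *Fzd10* fell by 3.13 and *Fzd7* by 1.46.

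The antagonists moved both ways from IM3 to iSLC. *Sfrp2* was at 10.1, 11.2 and 9.13 TPM in IM3 and 133, 126 and 116 in iSLC, and rose by 3.56 ± 0.08 (SE, adjusted p = 4.57e-23). *Frzb* was at 8.74, 9.87 and 9.27 TPM in IM3 and 63.8, 65.5 and 61.4 in iSLC, and rose by 2.87 ± 0.08 (adjusted p = 1.31e-21). *Sfrp1* differed by 0.65 (adjusted p = 1.85e-07), under the fold minimum, at the highest mean level of any of the 58 genes. *Sfrp5* fell by 3.797, *Dkk1* by 2.22 and *Dkk2* by 1.9. Of the ovarian pathway, *Wnt4* and *Rspo1* were at 12.1 to 12.5 and 7.81 to 9.96 TPM in iSLC. Of the other granulosa markers, *Foxl2* averaged 0.21 TPM in IM3 and 0.687 in iSLC, and *Fst* 1.15 and 3.63. Together these 4 granulosa markers summed to 13.7 to 17.3 TPM in IM3 and 23.5 to 27.5 in iSLC. The 4 endothelial markers summed to 62.4 to 73.8 TPM in IM3, with all 4 above 1 TPM, and to 3.04 to 4.14 TPM in iSLC, with 1 above it. The 9 blood markers summed to 79.2 to 141 TPM in IM3 and 1.75 to 2.45 in iSLC, where *Hbb-y*, *Hbb-bs*, *Hbb-bt* and *Slc4a1* were at 0 in every library. Cardiac markers summed to 139.5 to 267 and 141 to 144 TPM, but moved apart: *Tnnt2* averaged 67.9 TPM in IM3 and 130.0 in iSLC, whereas *Actc1* averaged 123 and 9.34, *Myh6* 10.7 and 2.69, and *Nkx2-5* 1.25 and 0.593. Their part in the changes of *Wnt2*, *Lef1* and the others was not tested, and IM3 and iSLC lie on different sides.

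Of 75 further genes of the pathway, 74 were matched and 70 tested. From ESC to EpiSC 10 of the 70 rose and 6 fell, or 22.9% against 8.07% of all genes, and from EpiSC to M 20 rose and 9 fell, or 41.4% against 14.5%. *Wls*, which carries Wnt ligands to the cell surface, averaged 11 TPM in ESC, 19 in EpiSC and 228 in M, and *Porcn*, which attaches their lipid, fell by 2.42 from ESC (54.4 TPM) to EpiSC (10.2 TPM). The mesoderm genes *Msgn1* and *Tbx6* rose by 5.87 and 4.83 from EpiSC to M, while *Cer1*, a secreted inhibitor, fell by 6.38. In IM1 against M 11 rose and 10 fell, or 30% against 15.7%, and in IM3 against M 10 rose and 18 fell, or 40% against 14.9%. Brachyury (*T*) fell by 6.51 in IM1, and *Sp8* by 5.26 in IM1 and 8.29 in IM3. *Shisa3*, which retains Frizzled inside the cell, rose by 5.52 from M to IM3. With retinoic acid 4 rose and 10 fell, or 20% against 6.34%, with *Shisa3* (3.06) up and *T* (by 4.86) and *Cdx2* (by 4.45) down. With Activin A 4 rose and 2 fell, or 8.57% against 3.8%, with *T* (3.46), *Cdx1* (2.77) and *Cdx2* (1.85) up and *Shisa3* (by 1.91) and *Celsr1* (by 1.67) down. With CHIR99021 0 were DE in IM4 against IM3 (edgeR), against 0.101% of all genes. There 17 had an unadjusted p under 0.05, a share that was not computed for all genes. In IM5 against IM2 *Shisa3* alone was DE (1.43% against 0.235%), with a fall of 1.397. Its interaction estimate was -1.23 (adjusted p = 0.000345). From IM3 to iSLC 12 rose and 6 fell, or 25.7%, near the 19.2% of all genes. They were led by the corepressor *Tle2* (3.58), the glypican *Gpc4* (2.59) and *Apc2* (2.21), and by *Cdx2* (by 5.27), *Sall4* (by 3.54) and *Celsr1* (by 1.395).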

How the data were processed

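Bulk RNA-seq covered 9 groups with 3 libraries each, grouped and numbered by the deposited labels. The study calls the 3 biological replicates, but the sources used here do not say whether they were separate cultures or differentiations, so p-values measure the spread between these libraries. The authors trimmed reads with Cutadapt 1.9.1, aligned them to GRCm38 with STAR 2.5.2a and estimated genes with RSEM 1.3.0. The expected counts deposited by the authors are RSEM's fragment estimates, not normalized between libraries. The TPM values deposited by the authors are the same estimates per effective length, scaled to a fixed library sum. The FPKM values deposited by the authors, and the lengths beside them, are not the basis of any level given here. Names and coordinates came from GENCODE M21, which matched 48435 of 48795 genes (99.26%).

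Totals of 35923040 to 84876603 limit precision for genes of few counts. Expected counts were rounded. edgeR 4.0.16 (R 4.3.3) kept 20839 genes with filterByExpr, and TMM factors, glmQLFit and glmQLFTest were used in 1 fit of all 27 libraries with a coefficient per group, with Benjamini-Hochberg adjustment over all genes tested. All adjusted p-values given are from this edgeR test, which was tested on simulated data. The thresholds are those of the study's methods, and the counts without the fold minimum were added after the data were seen. Same-numbered libraries of IM3 and IM4 deviated together (correlations of 0.235 to 0.345), which by the rule used counts as pairing. Those of EpiSC and M (0.0002 to 0.156) and of M and IM3 (0.0632 to 0.1295) were also all positive, but lower. For the other pairs of groups compared the lowest correlation was negative.

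The members, gene lists and comparisons were chosen with earlier results of these data known. Named in each comparison are up to 3 DE rises and 3 DE falls per class, the main targets, and for CHIR99021 each gene past the p threshold in a pair. *Axin2* and *Sp5* from EpiSC to M, other values under a threshold, and the groups whose libraries are listed were chosen after their values were seen. Alternatives were DESeq2 1.42.0, its size factors, other filters and thresholds, offsets for effective length and GC content, fits of only the groups compared, a replicate block and leaving out each library.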

Additional observations from a re-analysis of the deposited data

Results flagged for a closer look

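For *Dkk1* and *Frzb* the test of the difference between the CHIR99021 effects with and without Activin A passed the p threshold. For *Dkk1* the log2 difference of the effects was 0.67 (95% interval 0.42 to 0.92, adjusted p = 0.00637, edgeR), and for *Frzb* it was 0.61 (0.39 to 0.83, adjusted p = 0.00461). All 3 IM5 libraries of *Dkk1* were above all 3 of IM2, whereas those of IM4 and IM3 overlapped. No library of *Frzb* in IM4 was above any of IM3, and none in IM5 was below any of IM2. Library 1 of IM5, which stood apart, is part of both, and without it neither passed the threshold. Neither passed with the effective length offset either, and each was lost without most of the other single libraries. *Dkk1* was also lost with the replicate block, and *Frzb* in a fit of only the 4 groups. The groups with and without Activin A lie on different sides, so the side and Activin A cannot be told apart here.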

How the results depend on the processing

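Of 186 gene values named, 145 kept their call and direction under every alternative and 41 did not. The 2755 alternatives computed for them gave the same call and direction in 2607, a lost call in 146, a gained call in 1 (*Znrf3* in IM5 against IM2 without IM5 replicate 1) and a turned direction in 1, *Notum* in IM4 against IM3, at -0.26 with the effective length offset. Fits of only the groups compared accounted for 29 of the lost calls. Without the fold minimum, the counts of DE Wnt genes were 37 from ESC to EpiSC (63.8% of 58, against 37.7% of all genes), 35 for IM3 against IM1 (60.3% against 34.5%), 28 for IM2 against IM3 (48.3% against 26.1%), 6 for IM4 against IM3, 12 for IM5 against IM2, 19 for the mean of CHIR99021, 2 for its interaction and 36 for iSLC against IM3 (62.1% against 50.4%). Without the count minimum, 1 gene (*Notum*) was DE in IM5 against IM2, where 101 of all 20839 genes tested were. Past the p threshold, fits of only the groups compared left 2 genes in IM4 against IM3, 5 in IM5 against IM2 and 1 in the interaction. Leaving out 1 library gave 7 to 11 genes in IM5 against IM2 and 0 to 2 in the interaction, where the effective length offset gave 0, DESeq2 4 and the replicate block 1. The causes were not tested. Fits of fewer groups rest on fewer libraries, and they also change the count minimum. Its mean over all libraries is then taken over the fitted libraries alone. *Wnt2*, whose call from EpiSC to M was lost in such a fit, had counts of 163, 137 and 158 in M and 7, 2 and 9 in EpiSC. With the replicate block 6 genes passed in IM4 against IM3, and 9 when IM3 and IM4 were fitted alone with it. For these counts past the p threshold under alternatives, the shares of all genes were not computed. Apart from *Wnt5a* in the mean of CHIR99021 and *Dkk1* in the interaction, the block alone ended no call named. Effects of CHIR99021 near the threshold, such as *Fzd7*, *Fzd8* and *Lef1* in IM4, rest on 3 libraries a group.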
